A study of Mus musculus with 6 samples.

Results

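A set of 10 genes of bone morphogenetic protein (BMP) signalling was followed in intestinal stem cells of mice given DBZ, an inhibitor of gamma-secretase. They were the ligand genes Bmp2, Bmp4 and Bmp7, the co-receptor gene Rgmb, the receptor gene Bmpr1a, the target genes Id1, Id2 and Id3, and the inhibitory Smad genes Smad6 and Smad7. The genes come from a list of pathway members by name, chosen with earlier results of these data known. Their probe sets were those with exactly that one symbol in the array's probe table. All 10 were measured, out of 18193 genes in all, by 25 of 34945 probe sets with a single symbol. Rgmb and Bmp4 rose with DBZ, and the other 8 genes did not pass the test. Smad7 and Id3 read lower in every DBZ array than in any vehicle array without passing. Of all genes, 15.8% were lower in every DBZ array than in any vehicle array.

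A total of 6 Affymetrix 3' expression arrays were compared, each with RNA of 1 mouse. All mice carried the Lgr5-EGFP-IRES-creERT2 allele, which places EGFP and an inducible Cre under the control of Lgr5, a gene of crypt base stem cells, and cells with high GFP were sorted from the small intestine. The vehicle group was 3 mice given DMSO, and the DBZ group was 3 mice given DBZ, with a treatment of 24 h in both. The sources used here give neither strain background nor age. DBZ was given to the whole animal, so every cell type was exposed and not the sorted cells alone. The sample titles put the arrays in their groups, whereas the description field names DMSO for all 6.

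BMPs are secreted ligands that bring together type I receptors such as Bmpr1a with type II receptors, which leads to phosphorylation of Smad1, Smad5 and Smad9. With Smad4 these enter the nucleus and switch on target genes, among them the Id genes and the inhibitory Smads, which damp the signal. In the intestine BMP activity is known to be low at the crypt base, where antagonists from the surrounding stroma shield the stem cells, and high towards the villus, where it favours differentiation.

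The values are deposited probe set intensities on a linear scale, with array medians of 44.9 to 46.3. In the arrays titled DBZ the Notch target gene Hes1 averaged 213 ± 38, against 387 ± 50.5 (SD, n = 3 mice; limma, adjusted p = 0.039). Epithelial markers were bright in both groups, with Epcam at 18270 ± 1111 in vehicle mice and 18660 ± 1296 after DBZ (SD, n = 3). For the actin control, the 3' probe set was 1.61 to 2.22 times as bright as the 5' one on vehicle arrays and 1.51 to 1.57 times on DBZ arrays, a ratio used to judge RNA integrity. Vehicle replicate 1 held the value of 2.22, and the other vehicle arrays were at 1.61 and 1.69. The same ratio for Gapdh was 1.42 on vehicle replicate 1 and 1.05 to 1.11 on all other arrays, where the groups overlapped. The part of these ratios in the results was not tested. An exact permutation test of 1 gene in this design cannot give a p below 0.1. Differences are therefore given from limma, fitted to log2(intensity + 16) of all genes, with its standard error (SE) and with p-values adjusted by Benjamini-Hochberg over all 18193 genes at a threshold of 0.05.

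**Figure D1:**
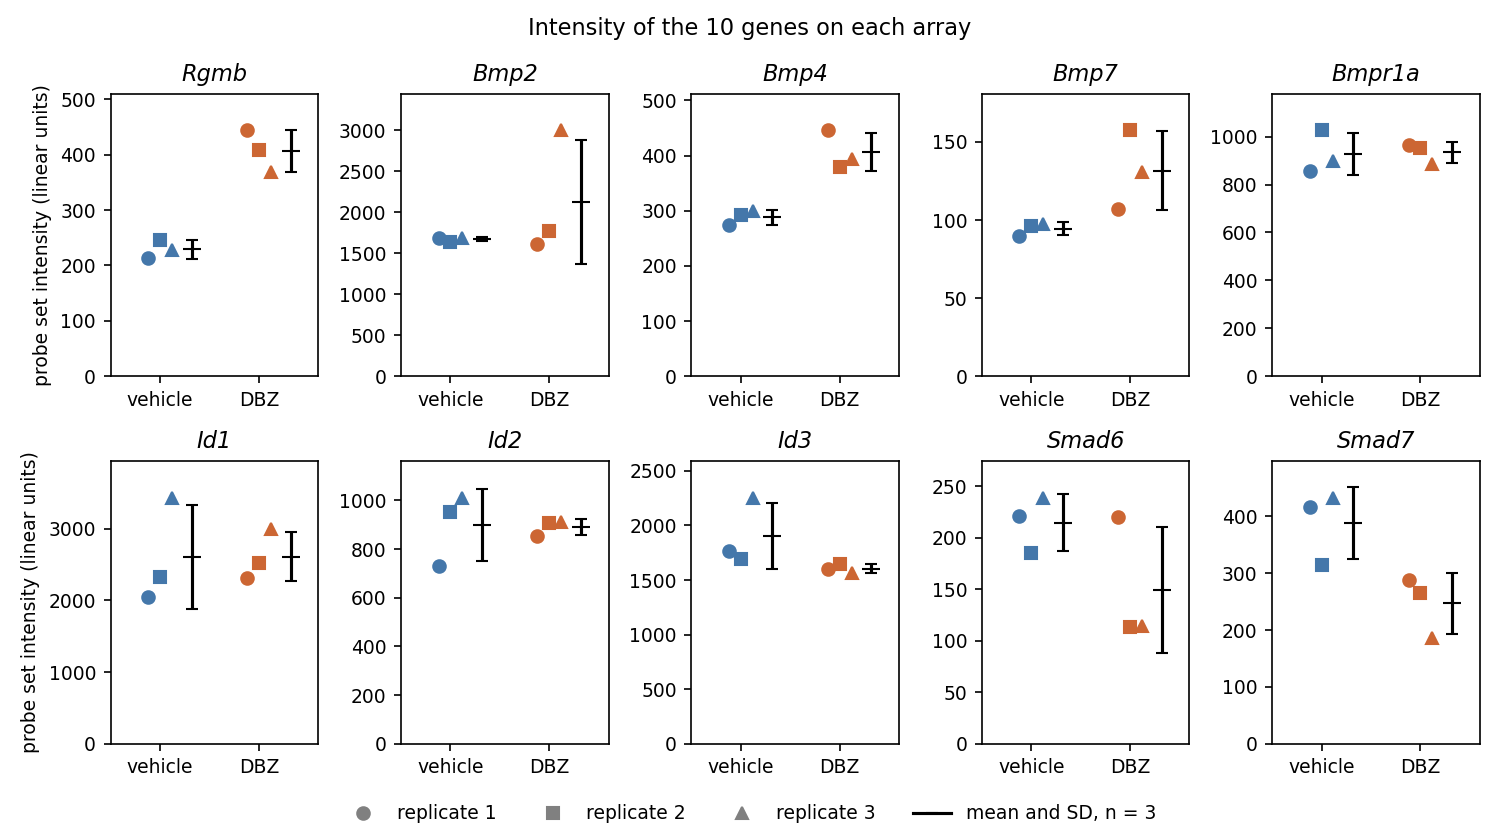
Probe set intensity (linear units, each axis from 0) of the 10 genes on each array, with vehicle in blue and DBZ in orange; symbols mark replicates, and bars the mean and SD of 3 mice. Rgmb and Bmp4 lay higher in every DBZ array than in any vehicle array, Smad7 lay lower, and Id1, Id2 and Bmpr1a overlapped.

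Of the 2 genes that rose, Rgmb had the larger difference. Rgmb, also known as DRAGON, is a membrane-anchored co-receptor that binds BMP ligands and is expressed in Lgr5-positive crypt cells. Its intensity was 213, 247 and 227 in the vehicle mice and 444, 408 and 368 in the DBZ mice, given here and later in the order of replicates 1, 2 and 3. The lowest DBZ array was above the highest vehicle array. The means were 229 ± 16.8 and 407 ± 37.8 (SD, n = 3), a log2 difference of 0.79 ± 0.09 (SE; limma, adjusted p = 0.022). The difference stayed between 0.53 and 0.85 under the 16 alternative settings. The call was lost without vehicle replicate 1, 2 or 3 (limma, adjusted p = 0.072, 0.076 and 0.082) and without DBZ replicate 2 (0.055), while the difference itself was 0.74 to 0.84 there.

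Rgmb had 6 probe sets, all with a positive difference, and 3 of them passed over all single-symbol probe sets (limma, adjusted p = 0.027, 0.028 and 0.048), where 2.87% of probe sets were called. These 3 gave log2 differences of 0.79, 0.61 and 0.87. The third brightest, at 0.54 ± 0.21, ran from 140 to 231 in vehicle and from 229 to 348 in DBZ arrays, so the groups overlapped. The dimmest pair, at 0.14 ± 0.11 and 0.19 ± 0.09 (SE), lay between 33.2 and 81.1 intensity units on all arrays. The size of the rise of Rgmb depended on the probe set read, and their mean gave 0.53 ± 0.09 (SE; limma, adjusted p = 0.041).

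Among the ligands Bmp4 rose. Bmp4 is made mostly by cells of the stroma in the gut. It read 273, 292 and 299 in the vehicle mice and 446, 380 and 394 in the DBZ mice, without overlap. Its single probe set went from a mean of 288 ± 13.3 to 407 ± 34.6 (SD, n = 3), a log2 difference of 0.47 ± 0.08 (SE; limma, adjusted p = 0.034). The difference was 0.41 to 0.52 under all alternative settings. The call was lost without vehicle replicate 1, 2 or 3 (limma, adjusted p = 0.10, 0.11 and 0.11) and without DBZ replicate 2 or 3 (0.070 and 0.068).

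Bmp7, a ligand of the same family, had higher values after DBZ on each of its 3 probe sets without passing the test. The brightest read 89.7, 96.2 and 97.5 in the vehicle mice and 107, 157 and 131 in the DBZ mice, a log2 difference of 0.40 ± 0.13 (SE; limma, adjusted p = 0.12). The groups did not overlap, though DBZ replicate 1 was close to the vehicle arrays. The other probe sets gave larger differences, of 0.87 ± 0.20 and 0.76 ± 0.18 (limma over probe sets, adjusted p = 0.073 and 0.077), and on both of them DBZ replicate 1 was again the lowest DBZ array. Without DBZ replicate 1 the brightest probe set passed, with a difference of 0.53 (limma, adjusted p = 0.032). It also passed with array weights, at 0.47 (0.045), a fit in which 3 of the 10 genes and 14.8% of all genes were called.

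Bmp2, which epithelial cells make as well, did not differ beyond its spread. It read 1685, 1640 and 1688 in the vehicle mice and 1616, 1777 and 3000 in the DBZ mice. Only DBZ replicate 3 stood away from the rest. The log2 difference was 0.29 with a 95% interval of -0.26 to 0.84 (limma, adjusted p = 0.47), and it was 0.02 without DBZ replicate 3.

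The type I receptor gene Bmpr1a read 856, 1026 and 899 in vehicle and 965, 953 and 884 in DBZ mice. The groups overlapped fully, and the log2 difference was 0.01 with a 95% interval of -0.19 to 0.22 (limma, adjusted p = 0.94). Its sign turned with quantile normalization and with the mean of probe sets. None of its 6 probe sets passed (limma over probe sets; 0 also at an unadjusted p under 0.05), and they ranged from -0.18 to 0.12.

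The Id genes encode helix-loop-helix proteins that lack a DNA-binding region and tie up E proteins, and their transcripts are commonly read as an output of BMP signalling. None of Id1, Id2 and Id3 passed the test (limma; 0 also at an unadjusted p under 0.05). Id1 read 2055, 2332 and 3432 in vehicle and 2320, 2523 and 2992 in DBZ mice, and so varied more among vehicle mice than between the groups. Its log2 difference was 0.03 with a 95% interval of -0.46 to 0.52 (limma, adjusted p = 0.94). A change of Id1 within that interval was not detectable with these arrays.

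Id2 read 730, 951 and 1011 in vehicle and 853, 906 and 911 in DBZ mice. All DBZ arrays lay within the vehicle range, and the difference was 0.0013 with a 95% interval of -0.31 to 0.31 (limma, adjusted p = 1.0). A further bright probe set of Id2 stood at -0.20 ± 0.10 and a dim one at -0.08 ± 0.11 (SE; limma over probe sets, adjusted p = 0.31 and 0.71). The signs of Id1 and Id2 both turned with quantile normalization and with array weights, and that of Id2 also with the mean of probe sets.

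Id3 read 1767, 1689 and 2253 in vehicle and 1601, 1649 and 1562 in DBZ mice. The DBZ arrays were all lower than any vehicle array, by a narrow margin from vehicle replicate 2. The log2 difference of -0.23 ± 0.12 (SE) did not pass (limma, adjusted p = 0.26), and its sign held under all 16 alternatives. Without vehicle replicate 3, the highest array, the difference of Id3 was -0.11.

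The inhibitory Smads block receptors and Smad complexes and are themselves switched on by the pathway. Smad7, which acts on both the BMP and the TGF-beta branch, read 416, 315 and 433 in vehicle and 288, 266 and 187 in DBZ mice. The groups were apart, with a log2 difference of -0.63 ± 0.19 (SE; limma, adjusted p = 0.10), which does not pass. The second probe set of Smad7 gave a like value, -0.55 ± 0.14 (SE; limma over probe sets, adjusted p = 0.086), with 102 to 148 on vehicle and 79.1 to 90.3 on DBZ arrays.

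Smad6, the inhibitor more selective for BMP receptors, read 221, 185 and 239 in vehicle and 220, 113 and 115 in DBZ mice. DBZ replicate 1 was at the vehicle level, and the other DBZ arrays were at about the same lower level as each other. With all arrays the log2 difference was -0.54 ± 0.25 (SE; limma, adjusted p = 0.23). Without DBZ replicate 1 it was -0.82 ± 0.12 and passed (SE; limma, adjusted p = 0.018), in a fit that called 11.2% of all genes. Each array held all sorted cells together, so fewer cells of a type and less RNA per cell cannot be told apart for any of these genes.

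Counted together, 2 of the 10 genes passed, both higher, where 5.34% of all genes were called (3.82% higher and 1.52% lower). None was lower by the adjusted test, and 1, Smad7, was lower at an unadjusted p under 0.05 (limma), by which 4 of the 10 genes and 26.3% of all genes passed. The groups did not overlap for 5 of the 10 genes, 3 higher and 2 lower, where 33.2% of all genes did not overlap (17.3% higher and 15.8% lower). The median log2 difference of the 10 genes was 0.02, and that of all genes -0.02. Leaving out any 1 array changed the count past the adjusted test. Without vehicle replicate 1, 2 or 3, or DBZ replicate 2, 0 members passed, with 2, 5, 3 and 4 at an unadjusted p under 0.05 (limma). Of all 18193 genes 3894, 3994, 3805 and 4018 were under 0.05 unadjusted there. Without DBZ replicate 3 only Rgmb passed. Without DBZ replicate 1 the 4 that passed were Rgmb, Bmp4, Bmp7 and Smad6. Over all genes these fits called 0.269%, 0.104%, 0.209%, 1.19%, 1.93% and 11.2%, in that order.

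**Figure D2:**
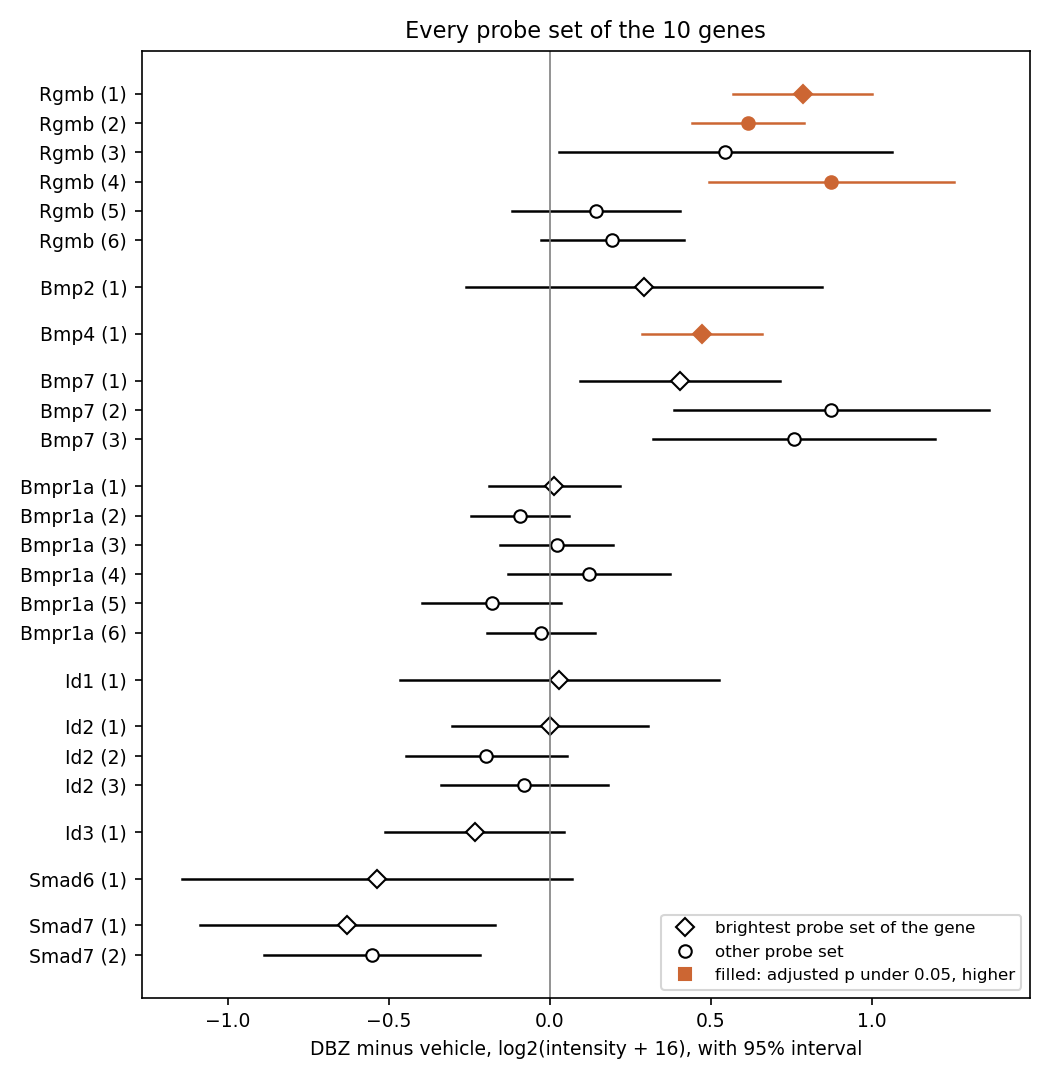
Log2 difference (DBZ minus vehicle, on log2(intensity + 16)) with its 95% interval for all 25 probe sets of the 10 genes, numbered from the brightest within each gene; diamonds mark the probe set used for the gene and filled symbols an adjusted p under 0.05 over all probe sets. The 4 filled symbols are 3 of the 6 probe sets of Rgmb and that of Bmp4, and both probe sets of Smad7 lie below 0.

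The upstream sequences of the genes that rose, Rgmb and Bmp4, and of Id2 and Id3 are shown so that the known reading of Smad sites can be followed on them. They come from RefSeq (GRCm38.p6) and are the 250 bases before an annotated start, 5′ to 3′ on the gene's strand. Windows of 6 of the 10 genes were used, and the start farthest upstream was taken for Rgmb. Windows for Bmp2, Bmp7, Id1 and Smad7 are not used here. Capitals mark TATAAA in Rgmb, GGCGCC in Id2 and CAGAC or its reverse complement in Id3.
Rgmb, chr17:15831247-15831496, minus strand: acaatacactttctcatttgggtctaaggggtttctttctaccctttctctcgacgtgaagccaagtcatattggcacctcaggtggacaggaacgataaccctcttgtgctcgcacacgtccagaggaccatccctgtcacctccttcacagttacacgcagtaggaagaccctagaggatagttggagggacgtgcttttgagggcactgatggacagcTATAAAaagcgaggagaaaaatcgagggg
Bmp4, chr14:46390670-46390919, minus strand: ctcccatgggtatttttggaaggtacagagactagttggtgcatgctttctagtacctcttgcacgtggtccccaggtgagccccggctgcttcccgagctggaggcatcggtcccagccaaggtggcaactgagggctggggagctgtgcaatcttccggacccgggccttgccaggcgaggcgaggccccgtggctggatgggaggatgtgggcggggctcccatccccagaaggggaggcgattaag
Id2, chr12:25096093-25096342, minus strand: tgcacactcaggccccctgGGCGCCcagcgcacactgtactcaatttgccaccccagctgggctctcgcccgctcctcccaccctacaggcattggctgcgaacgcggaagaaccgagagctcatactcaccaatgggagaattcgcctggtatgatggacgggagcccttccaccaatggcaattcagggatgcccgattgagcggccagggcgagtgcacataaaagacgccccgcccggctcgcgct
Id3, chr4:136143572-136143821, plus strand: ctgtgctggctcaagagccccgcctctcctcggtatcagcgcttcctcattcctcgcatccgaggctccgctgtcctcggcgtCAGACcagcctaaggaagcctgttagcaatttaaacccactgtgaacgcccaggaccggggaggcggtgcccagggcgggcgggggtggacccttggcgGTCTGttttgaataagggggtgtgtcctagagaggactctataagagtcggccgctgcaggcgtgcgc

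The motifs were searched on both strands. GGCGCC, a GC-rich element read by BMP Smads, was found in 9.59% of 32851 such windows of the genome, and Id2 held it 231 bases before its start. CAGAC, the common Smad box, was found in 42.2% of windows, and Id3 held it at 167 and, on the opposite strand, 68 bases before its start. TATAAA, the core of the TATA box, was found in 12.4% of windows, and in that of Rgmb it lay 29 bases before the start. TGGGAA, the core of the site of Rbpj, the DNA-binding partner of Notch, was in 21.6% of windows and in none of these 4. The windows of Bmp4 and Smad6 held none of the 4 motifs. Of the windows not printed, that of another annotated start of Rgmb held GGCGCC at 21 and CAGAC, on the opposite strand, at 175 bases. It overlaps the printed window of Rgmb, and its TATAAA, at 210 bases before the start, is the same site. The window of the remaining start of Rgmb held none. The window of Bmpr1a held GGCGCC at 198 and TGGGAA on the opposite strand at 217 bases. A match is a string of letters in this window and not a measured binding site.

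The rest of the pathway was read from lists by role, 66 genes of which 61 were measured. Of these 7 rose and 0 fell, where 5.34% of all genes were called. At an unadjusted p under 0.05, 18 of the 61 were higher and 4 lower, where 26.3% of all genes passed (limma). Of all 18193 genes 2739 were higher and 2051 lower by that measure. The 61 genes had a median log2 difference of -0.02. In the fit over all single-symbol probe sets, Grem1 and Eng still passed (limma, adjusted p = 0.047 and 0.039). Bmper, Twsg1, Tgfbr3, Tgfbr2 and Ltbp1 did not pass there (limma, adjusted p = 0.055, 0.056, 0.051, 0.056 and 0.054). The 7 calls were lost without vehicle replicate 1, 2 or 3 or DBZ replicate 2 (0 called each, with 17, 17, 19 and 18 at an unadjusted p under 0.05 by limma). The unadjusted counts over all 18193 genes were 3894, 3994, 3805 and 4018 in these fits. Without DBZ replicate 3 only Bmper was called, and without DBZ replicate 1 there were 8 calls, 7 higher and 1 lower. Those 8 included Id4 but neither Twsg1 nor Ltbp1 (limma, adjusted p = 0.064 and 0.059). Eng was the only one called with a pseudocount of 64 (2.42% of all genes), while Eng was lost with quantile normalization (limma, adjusted p = 0.0501), Twsg1, Tgfbr2 and Ltbp1 with median centring (0.054, 0.052 and 0.052; 4.36% of all genes called) and the same 3 with the mean of probe sets (4.23% of all genes called).

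Secreted antagonists held 3 of the 7. Grem1, which binds BMP ligands and is made by stromal cells around the crypt, read 244, 360 and 326 in vehicle and 612, 696 and 518 in DBZ mice. Every DBZ array lay above the vehicle arrays, and the log2 difference was 0.94 ± 0.17 (SE; limma, adjusted p = 0.038). Bmper, an extracellular BMP binder, rose from 28.8 ± 1.34 to 64.3 ± 19.1 (SD, n = 3; limma, adjusted p = 0.047), at intensities around the array median. Twsg1, which works with chordin, rose by 0.49 ± 0.10 on its brightest probe set (SE; limma, adjusted p = 0.048). Its other 3 probe sets, with means under 60 units in both groups, were at 0.20, -0.11 and 0.04, and their mean with the brightest did not pass, at 0.16 (limma, adjusted p = 0.15). Of 10 measured antagonists 3 rose and 0 fell, where 3.82% of all genes rose and 1.52% fell. At an unadjusted p under 0.05 (limma), 6 were higher and 0 lower, where 26.3% of all genes passed in either direction. The median of the antagonists was 0.24. Noggin (Nog) was dim on all arrays, at 14 to 18 units.

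Among 12 other receptors and co-receptors 2 rose and 0 fell (3 and 1 at an unadjusted p under 0.05, limma), with a median of -0.02. Over all genes 5.34% were called, and 26.3% passed unadjusted. Tgfbr3, or betaglycan, a co-receptor for TGF-beta ligands and BMPs, read 481, 726 and 615 in vehicle and 1011, 1055 and 1063 in DBZ mice, a log2 difference of 0.78 ± 0.15 (SE; limma, adjusted p = 0.042). A dim second probe set of Tgfbr3 was at -0.01. Eng, or endoglin, a co-receptor known from endothelium, rose from 143 ± 5.20 to 201 ± 14.7 (SD, n = 3; limma, adjusted p = 0.032). The type II receptor gene Bmpr2 was at -0.02 ± 0.06 (SE; limma, adjusted p = 0.89).

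Of the other ligands 0 of 7 passed (2 higher at an unadjusted p under 0.05, limma), with Bmp8b at 0.33 ± 0.11 and Bmp5 at 0.26 ± 0.09 (SE, n = 3). None of 10 Smads and Smad regulators passed (1 lower at an unadjusted p under 0.05, limma). Of these 10 genes 9 were negative, with a median of -0.12. Negative differences were also the more frequent over all genes, of which 8263 of 18193 were positive. Smad4, the partner shared by both branches, averaged 2968 ± 191 in vehicle mice and 2485 ± 212 after DBZ (SD, n = 3). This was a log2 difference of -0.26 ± 0.09 (SE; limma, adjusted p = 0.13), and it passed with array weights, at -0.31 (0.049). Ski, a repressor of Smad complexes, was at -0.23 ± 0.11, and at -0.12 without DBZ replicate 3. Of 6 other target genes 0 passed (1 higher at an unadjusted p under 0.05, limma).

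Id4, the remaining member of the Id family, had a larger difference than Id1, Id2 or Id3. It read 336, 600 and 550 in vehicle and 710, 1352 and 1373 in DBZ mice, a log2 difference of 1.16 ± 0.32 (SE; limma, adjusted p = 0.087). The groups did not overlap, and whether Id4 differs from the other Id genes was not tested. Id4 passed without DBZ replicate 1, at 1.47 (limma, adjusted p = 0.026), with array weights (0.033) and with the filter on dim genes (0.047), where 13.8% of the genes kept were called. Its further probe sets were at 0.67 ± 0.35 and 0.62 ± 0.23 (SE), with overlap between groups. Msx1, another target, was at -0.14 ± 0.07. Of the E proteins, the partners of Id proteins, 0 of 3 passed (1 higher at an unadjusted p under 0.05, limma), with Tcf4 at 0.24 ± 0.07 and Tcf3 at -0.27 ± 0.16 (SE), the latter at -0.14 without DBZ replicate 3.

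In the TGF-beta and activin branch, which shares Smad4 and Smad7 with BMP signalling, 2 of 13 genes rose and 0 fell (5 and 2 at an unadjusted p under 0.05, limma), with a median of -0.06. The shares over all genes were 5.34% called and 26.3% unadjusted. Tgfbr2, the type II receptor of TGF-beta, read 835, 967 and 1067 in vehicle and 1505, 1734 and 2419 in DBZ mice, a log2 difference of 0.95 ± 0.19 (SE; limma, adjusted p = 0.047). A further probe set, with means of 84.2 in vehicle and 80.0 in DBZ mice, was at -0.07. A dim one, near 10.9 in both groups, was at 0.00. The mean of all 3 did not pass (limma, adjusted p = 0.055). Ltbp1, which holds latent TGF-beta in the matrix, rose by 0.54 ± 0.11 (SE; limma, adjusted p = 0.047), and by 0.22 without passing as a mean of its probe sets (limma, adjusted p = 0.069).

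**Figure D3:**
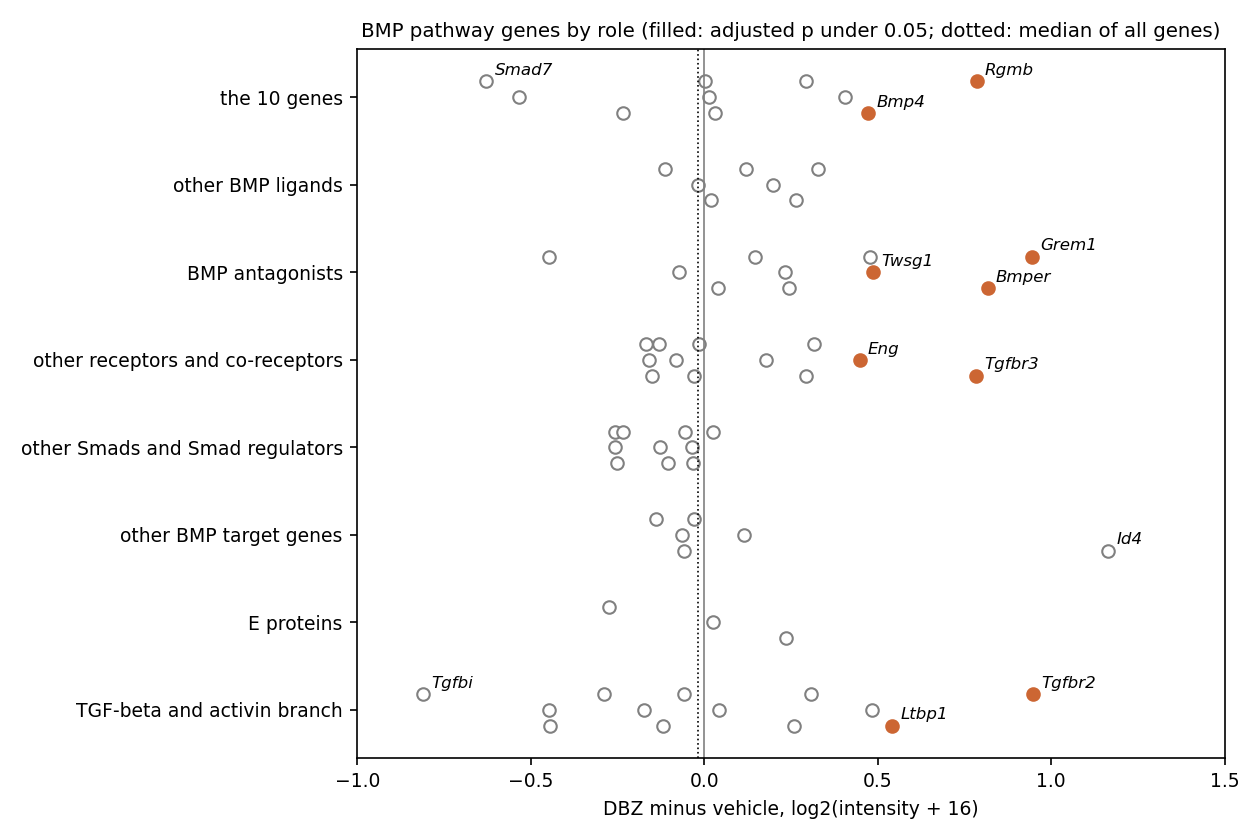
Log2 difference (DBZ minus vehicle, on log2(intensity + 16)) of the 10 genes and of 61 other pathway genes by role, 1 point per gene; filled points have an adjusted p under 0.05 over all genes, and the dotted line is the median of all genes. All 9 filled points lie above 0, 3 of them among the antagonists and none among the Smads.

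Stromal markers were higher in the same DBZ arrays. The counts below stand beside 3.82% of all genes called higher and 1.52% called lower. Of 15 fibroblast and smooth muscle markers 7 rose and 0 fell, with a median of 0.77, and their intensities summed to between 21200 and 30610 on vehicle arrays and between 44350 and 51680 on DBZ arrays. Of 12 endothelial markers 2 rose and 0 fell, with a median of 0.40 and sums of 1429 to 1479 and 1813 to 2062. Bmp4 and Grem1, known from stromal cells, and Eng, known from endothelium, moved in the same direction as these lists. On DBZ replicates 1, 2 and 3 Bmp4 stood 0.60, 0.38 and 0.43 above the vehicle mean (log2). The median of the fibroblast and smooth muscle list stood at 0.70, 0.80 and 1.00 on these arrays. That of the endothelial list stood at 0.35, 0.22 and 0.42. The part of stromal and endothelial cells in the values of Bmp4, Grem1, Bmper, Tgfbr3, Tgfbr2, Ltbp1, Eng and Rgmb was not tested. The lowest value of any probe set was 6.87 to 7.21 units by array. No marker could therefore read 0, and a value above 0 does not show that a marker was expressed.

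Other cell types moved as well. Over all genes 3.82% were called higher and 1.52% lower, and 26.3% passed at an unadjusted p under 0.05 (limma). For enteroendocrine markers the median was 1.43 and 1 of 8 rose, with sums of 3579 to 4225 on vehicle and 5914 to 15960 on DBZ arrays, the lowest DBZ sum being that of replicate 1. Goblet markers had a median of 0.41 (2 of 7 rose, sums of 108400 to 116300 and 134400 to 165600), and enterocyte markers, which lie towards the villus, of -0.29 (0 of 7 passed, 3 lower at an unadjusted p under 0.05 by limma, sums of 58100 to 61320 and 47340 to 56730). DBZ replicate 1 was also the DBZ array nearest to vehicle for Bmp7, Smad6 and Smad7, but not for Rgmb or Bmp4. By list median it was nearest for goblet, Paneth and fibroblast and smooth muscle markers as well. For endothelium and adipocyte markers DBZ replicate 2 was nearest. The part of secretory or stromal cells in the values of Bmp7, Smad6 and Smad7 was not tested. Paneth markers went both ways, with 2 of 4 called higher and the other 2, Ang4 and Lyz1, lower in every DBZ array than in any vehicle array without passing. Ang4 averaged 18140 ± 3399 in vehicle and 3512 ± 2365 in DBZ mice (SD, n = 3), a log2 difference of -2.70 (limma, adjusted p = 0.068), and Lyz1 was at -0.30 (0.26). The 4 summed to 47020 to 56010 on vehicle and 28950 to 53630 on DBZ arrays. Adipocyte and mesothelium markers were higher by medians of 1.75 and 0.96, with 2 of 5 and 0 of 4 past the test (4 higher at an unadjusted p under 0.05 in each, limma) and sums of 1954 to 4391 against 10360 to 24660 and of 69.3 to 74.9 against 109.5 to 479. Among 12 immune markers 2 rose, S100a8 and S100a9, with a median of -0.11 and sums of 6227 to 8014 and 6299 to 14310. Epithelium markers had a median of -0.04 (0 of 10 passed, 1 higher and 2 lower at an unadjusted p under 0.05 by limma, sums of 95950 to 107500 and 97280 to 103700). Of 10 crypt base stem cell markers 2 fell, Olfm4 and Ascl2, with a list median of -0.04 and sums of 9509 to 11890 and 7707 to 8435. Olfm4 averaged 4346 ± 781 in vehicle and 28.1 ± 8.81 in DBZ mice (SD, n = 3; limma, adjusted p = 0.00042). The log2 difference of Ascl2 was -1.03 (limma, adjusted p = 0.025).

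**Figure D4:**
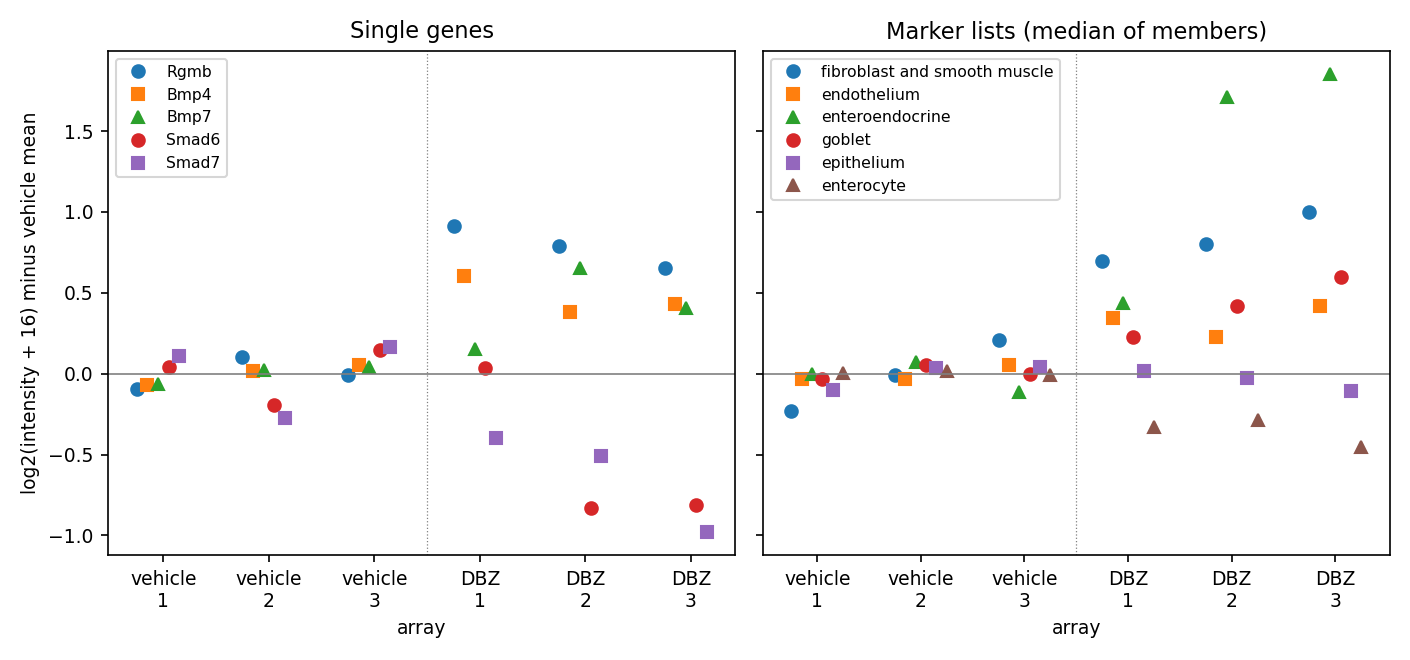
Level on each array as log2(intensity + 16) minus the vehicle mean, for 5 of the genes (left) and as the median over the members of 6 marker lists (right). Rgmb and Bmp4 are up in all 3 DBZ arrays, and Bmp7 and Smad6 are near the vehicle level in DBZ replicate 1. The enteroendocrine, goblet and fibroblast and smooth muscle lists are lowest among DBZ arrays in that replicate too.

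Rgmb and Smad7 were the genes of the 10 whose log2 values spanned at least 1 over the arrays, and the genes most like them in pattern were sought among 8947 genes brighter than the median gene. Those nearest to Rgmb over the 6 arrays were Prkcsh (Pearson r = 0.991), Atpsckmt (0.988) and Cnpy3 (0.988), with log2 differences of 0.39, 0.26 and 0.27. Nearest to Smad7 were Nup155 (0.997), Ino80d (0.984) and Lzts3 (0.979), with differences of -0.24, -0.16 and -0.55. Each r rests on 6 arrays that share the difference between groups, and is given as a description only.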

How the data were processed

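RNA was labelled with a 3' IVT kit, per the labels' protocols, and hybridised to Affymetrix Mouse Genome 430 2.0 arrays. The authors deposited linear probe set intensities on a common level between arrays. Software, background correction, normalization and detection calls: not given in the sources used here. The DBZ dose is not used, because its unit seems to have lost a prefix.

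Of 45101 probe sets, 34945 had a single symbol and were no array control. A gene was read by its probe set of highest mean log2(intensity + 16). limma 3.58.1 (R 4.3.3; lmFit, eBayes, two-sided) was tested on simulated data and fitted to all genes. This scale understates changes of dim genes, and the number of arrays limits precision.

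The members, lists and alternatives were chosen with earlier results of these data known. Named genes were the members, up to 4 called genes of each pathway list (otherwise 2 of smallest p), and the 3 genes most like each member spanning at least 1 (log2), predicted genes left out. Hes1, Epcam, Bmpr2, Nog, Ang4, Lyz1, S100a8, S100a9, Olfm4 and Ascl2 were named after their values were seen. Alternatives were quantile normalization, median centring, pseudocounts of 1 and 64, a filter on dim genes, mean of probe sets, no _x_at probe sets, trend and robust variance, array weights, a block for replicate number, and leaving out each array.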

Additional observations from a re-analysis of the deposited data

How the results depend on the processing

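Under the 16 alternatives the differences of Rgmb, Bmp2, Bmp4, Bmp7 (15, since the filter on dim genes removed it), Id3, Smad6 and Smad7 kept their sign. The count of genes past the threshold (972) was 440 with a pseudocount of 64, 2690 with array weights and 19 to 2032 when 1 array was left out. The count of members (2) was 0 to 4 with 1 array left out and 3 with array weights, and the count of their probe sets (4) was 0 to 7 there, 2 with a pseudocount of 64 and 7 with array weights. The count of other pathway genes (7) was 0 to 8 with 1 array left out, 4 with median centring, 1 with a pseudocount of 64, 4 with the mean of probe sets and 11 with array weights. The sample titles do not say whether replicate numbers pair the mice. Arrays of the same number had correlations of deviations of -0.009, 0.25 and 0.20, and arrays of unlike number of -0.29 to 0.014. So few correlations cannot decide whether the mice were paired. With the replicate number as a block 889 genes passed, 1 member (Rgmb; Bmp4 had an adjusted p = 0.065, limma), 2 of their probe sets and 4 other pathway genes. These were Grem1, Tgfbr3, Tgfbr2 and Id4 (limma, adjusted p = 0.028 for Id4), while Bmper, Twsg1, Eng and Ltbp1 were not called (0.062, 0.079, 0.053 and 0.076). Differences near 0 changed sign. Bmpr1a was at -0.046 with quantile normalization, -0.024 with the mean of probe sets and -0.040 to 0.088 with 1 array left out. Id1 was at -0.019 with quantile normalization, -0.22 with array weights and -0.12 to 0.24 with 1 array left out. Id2 was at -0.058, -0.091 and -0.11 with quantile normalization, the mean of probe sets and array weights, and -0.14 to 0.092 with 1 array left out. The cause of these changes was not tested.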
